A study of Homo sapiens with 16 samples.

Results

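NFKB2 binding was compared between T47D cells with a stable knockdown of DAB2IP and control T47D cells, by chromatin immunoprecipitation followed by sequencing (ChIP-seq). The comparison rested on the 4 libraries made with an NFKB2 antibody, 2 from knockdown and 2 from control cells, out of 16 samples in the series, of which 12 have a peak list. Peaks on chromosomes 1 to 22 and X were used, intervals over 5000 bp were dropped, repeated intervals were counted once, and peaks of the 4 libraries that shared at least 1 bp were joined into 2155429 regions. Of these, 44967 (2.09%) were called in both knockdown libraries and in neither control library, and are named knockdown-only. The mirror set, named control-only, held 63058 regions (2.93%). A mixed pairing is a set called in exactly 1 knockdown and 1 control library, and the 4 mixed pairings held 45847 to 61015 regions.

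T47D is an established human luminal breast cancer line that expresses the estrogen receptor. Knockdown cells carried lentiviral short hairpin RNAs (shRNAs) against DAB2IP. For control cells the study's methods name an empty vector, and its results a scrambled shRNA. Transduced cells were selected with puromycin. The labels name a single cell line, do not say which hairpin a library came from, and do not say whether replicates were separate cultures. A peak list does not measure RNA or protein, so neither the loss of DAB2IP nor the identity of the line was checked here.

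DAB2IP encodes a RasGAP, a protein that turns Ras signaling off. NFKB2 is made as the precursor p100, which holds its partner RELB in the cytoplasm. In the noncanonical NF-κB pathway, receptors such as LTBR, CD40 and TNFRSF11A release the kinase MAP3K14 from degradation by TRAF2, TRAF3 and BIRC2/BIRC3, and the kinase CHUK then marks p100 for processing to p52. The p52:RELB dimer enters the nucleus and binds κB motifs, short sequences of the type GGGANTTTC or GGGANTTCC (N, any base).

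Promoter sequences show what the regions of 1 condition looked like at gene starts. A promoter here runs from 250 bases before to 50 bases after a gene's start in RefSeq (GRCh38.p14), and 22131 promoters of protein-coding genes were searched. The first pair below are the promoters in which both libraries of a condition placed their summits, the points of highest signal, closest to the start: STEAP2, a plasma membrane metalloreductase (knockdown-only, chr7:90213570-90213869, plus strand), and ACSL6, a fatty acid CoA ligase (control-only, chr5:132011768-132012067, minus strand). Capitals mark the stretch from the summit of 1 library to the summit of the other, and neither promoter holds a κB motif. The second pair are the 2 promoters with a knockdown-only region that do hold one, GBP4, an interferon-induced GTPase (chr1:89198893-89199192, minus strand), and PES1, a ribosome biogenesis factor (chr22:30591861-30592160, minus strand). Both were chosen after their values were seen, and capitals mark the match, which in both reads on the strand opposite to the gene. All run 5′ to 3′ along the gene.
STEAP2: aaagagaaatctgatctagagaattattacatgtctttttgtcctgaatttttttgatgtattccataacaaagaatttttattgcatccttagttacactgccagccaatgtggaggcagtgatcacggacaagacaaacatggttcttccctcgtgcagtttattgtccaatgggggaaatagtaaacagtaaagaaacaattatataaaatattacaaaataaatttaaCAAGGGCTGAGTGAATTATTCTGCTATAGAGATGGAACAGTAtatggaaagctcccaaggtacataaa
ACSL6: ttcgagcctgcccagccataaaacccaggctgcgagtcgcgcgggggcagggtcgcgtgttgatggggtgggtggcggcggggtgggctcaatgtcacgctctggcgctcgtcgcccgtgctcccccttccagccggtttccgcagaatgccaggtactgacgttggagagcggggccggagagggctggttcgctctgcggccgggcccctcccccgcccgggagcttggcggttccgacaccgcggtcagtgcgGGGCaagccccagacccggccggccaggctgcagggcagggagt
GBP4: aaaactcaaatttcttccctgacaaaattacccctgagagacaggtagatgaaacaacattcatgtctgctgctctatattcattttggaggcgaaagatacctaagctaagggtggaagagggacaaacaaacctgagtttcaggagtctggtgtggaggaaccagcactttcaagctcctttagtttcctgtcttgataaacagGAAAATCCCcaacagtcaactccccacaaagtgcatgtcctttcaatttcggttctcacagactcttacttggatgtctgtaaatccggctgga
PES1: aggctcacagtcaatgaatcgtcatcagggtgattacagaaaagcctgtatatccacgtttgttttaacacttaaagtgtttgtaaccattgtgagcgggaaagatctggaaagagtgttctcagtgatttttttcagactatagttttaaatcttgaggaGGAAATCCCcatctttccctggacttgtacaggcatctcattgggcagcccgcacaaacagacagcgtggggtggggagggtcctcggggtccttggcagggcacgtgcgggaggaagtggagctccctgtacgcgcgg

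In GBP4 the match began at base -44 from the start, negative positions lying before it, and was inside the knockdown-only region, 79 bases from the nearer summit. In PES1 the match began at base -89 and lay outside the region, whose nearer summit was 132 bases away. Over all promoters, 712 of 22131 (3.22%, exact 95% confidence interval 2.99% to 3.46%) held GGGANTTTC or GGGANTTCC on either strand, 1.18% the first and 2.07% the second. These 2 motifs differ in 1 letter, so they cannot share a match. The share was 2 of 147 promoters (1.36%, 0.165% to 4.83%) with a knockdown-only region and 7 of 220 (3.18%, 1.29% to 6.45%) with a control-only region, beside 1.28% to 4.60% in the mixed pairings. The 7 control-only promoters belonged to 6 genes, since overlapping promoter entries of NBPF8 held the same match and were counted separately. In 5 of these 6 genes the match lay inside the control-only region. It was closest to the nearer summit in ZNF407 (30 bases) and STK11IP (33 bases), closer than in GBP4 or PES1. The intervals of both conditions held the share of all promoters, and they cover counting error only. Of all promoters with a peak, taken 1 library at a time, 3.26% to 3.47% held a motif.

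The 4 lists were long and their peaks weak. Knockdown replicates 1 and 2 (knockdown 1 and 2 below) held 574498 and 665568 peaks, and control replicates 1 and 2 held 708547 and 675303. They covered 129.1 and 154.7 Mb in knockdown and 163.5 and 156.8 Mb in control cells. Both knockdown libraries lay below both control libraries, but knockdown 1 stood further from knockdown 2 than knockdown 2 did from control 2. The ratio of knockdown to control was -0.16 on the log2 scale for peak number (means 620033 ± 64396 and 691925 ± 23507, SD, n = 2) and -0.18 for covered bases. Exact two-sided permutation tests gave p = 0.33 for each, which is the smallest p that 2 libraries against 2 can give. With intervals over 5000 bp kept, the log2 ratio of covered bases was -0.035 (exact permutation p = 1). Within replicate number 1 the log2 ratio of peak number was -0.30, and within number 2 it was -0.02. The p-values measure only the spread between these libraries, and the lists give no read totals, so sequencing depth is unknown and depth and condition cannot be told apart in a peak number. Peaks were listed from an unadjusted p of 0.05. Only 102 to 123 peaks of a library (0.0153% to 0.0214%) had a q, the p adjusted for multiple testing, of at most 0.05. The median fold enrichment over the local background was 2.19 to 2.24, and the shortest length, 147 bp, was shared by 38.3% to 40.2% of peaks.

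The overlap of 2 libraries did not follow the condition. The Jaccard index, bases covered in both libraries over bases covered in either, was 3.06% between the knockdown libraries and 3.72% between the control libraries. The mixed pairs lay between them, from 3.12% to 3.68%, and the 3 pairs that hold knockdown 1, the list with the fewest covered bases, were the 3 lowest. Of all regions, 82.1% were called in 1 library and 6630 (0.308%) in all 4.

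The genome was divided into satellite windows, protein-coding gene spans, gene deserts and the rest. Satellite windows are the centromere models, large heterochromatic blocks and acrocentric short arms, made mostly of repeated DNA. Gene deserts are stretches of at least 1 Mb between neighboring protein-coding genes. Gene spans took 42.5% and 41.9% of peaks in knockdown 1 and 2 and 42.6% and 41.3% in control 1 and 2, close to the 41.6% of bases they occupy. Deserts took 20.7% and 22.1% of knockdown peaks and 20.7% and 22.5% of control peaks, above their 18.1% of bases in all 4 libraries. Promoter windows, 1 kb on either side of a gene's start, took 1.21% and 1.00% in knockdown and 1.20% and 0.974% in control cells, beside 1.20% of bases. Satellite windows took 1.54% and 1.15% in knockdown and 1.41% and 1.45% in control cells, well under their 6.09% of bases, a length that includes unsequenced gaps. The same gaps are in the total, so the other classes hold a larger share of sequenced bases than given here.

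**Figure D1:**
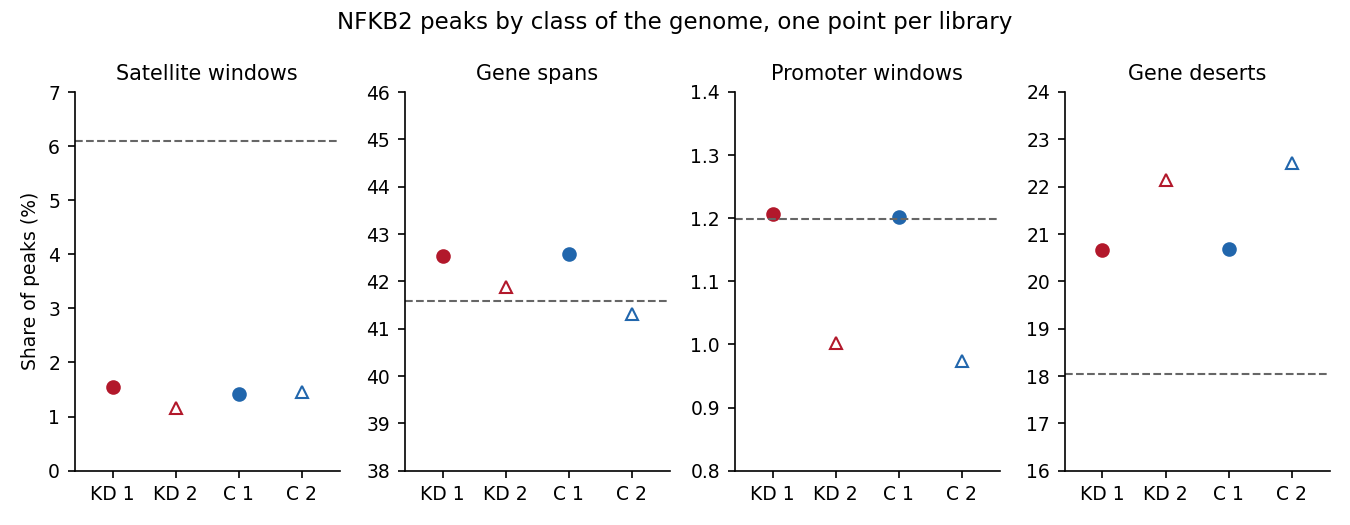
Share of NFKB2 peaks (percent, vertical axes that do not all start at 0) in each class, with 1 point per library: red for knockdown (KD), blue for control (C), circles for replicate 1 and open triangles for replicate 2. The dashed line is the share of bases in the class, with unsequenced gaps in the total. In gene spans, promoter windows and deserts the points pair by shape, not by color.

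In no class did the conditions separate. Knockdown minus control was 0.25 percentage points in gene spans (42.2% ± 0.469 and 41.95% ± 0.897, SD, n = 2, exact permutation p = 1). It was -0.194 points in deserts (21.4% ± 1.03 and 21.6% ± 1.29, n = 2, exact permutation p = 0.667). In promoter windows it was 0.017 points (1.105% ± 0.145 and 1.088% ± 0.162, n = 2, exact permutation p = 0.667), and in satellite windows -0.0836 points (1.35% ± 0.274 and 1.43% ± 0.0252, n = 2, exact permutation p = 1). Within replicate numbers 1 and 2 the differences were -0.0523 and 0.552 points in gene spans, 0.0051 and 0.0288 in promoter windows, -0.0154 and -0.372 in deserts, and 0.128 and -0.295 in satellite windows. Leaving out 1 library, which also leaves the replicate numbers unbalanced, turned these directions. Without knockdown 1 the differences were -0.0818 points in gene spans, -0.0855 in promoter windows and 0.537 in deserts, without control 2 they were -0.384, -0.0973 and 0.716, and without knockdown 2 the difference in satellite windows was 0.110. The replicate numbers stood further apart than the conditions. Libraries numbered 1 had 0.966 points more of their peaks in gene spans, 0.217 more in promoter windows and 1.64 fewer in deserts (difference -1.64) than libraries numbered 2, with the same direction in knockdown and in control cells. The labels do not say what a replicate number marks, and its part in the class shares was not tested.

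Knockdown-only and control-only regions lay in the same classes of the genome. In gene spans lay 18570 knockdown-only regions (41.3%, exact 95% interval 40.8% to 41.75%) and 25876 control-only regions (41.0%, 40.65% to 41.4%), beside 40.2% to 41.9% in the mixed pairings. In deserts lay 10147 (22.57%) and 14200 (22.52%), beside 20.7% to 24.3%. Promoter windows held 461 (1.025%) and 645 (1.023%), beside 0.886% to 1.20%. The 2 conditions differed by less than the mixed pairings did among themselves in each of these classes. The extremes in deserts were the pairings by number, 20.7% for knockdown 1 with control 1 and 24.3% for knockdown 2 with control 2.

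Regions of opposite pattern were interspersed. A knockdown-only region lay a median of 14.65 kb from the nearest control-only region, where regions of a single library lay 14.8 to 17.9 kb away. A control-only region lay 19.9 kb from the nearest knockdown-only region, beside 21.3 to 22.9 kb for regions of a single library. The mixed pairings gave 12.7 to 14.4 kb and 18.9 to 20.03 kb.

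**Figure D2:**
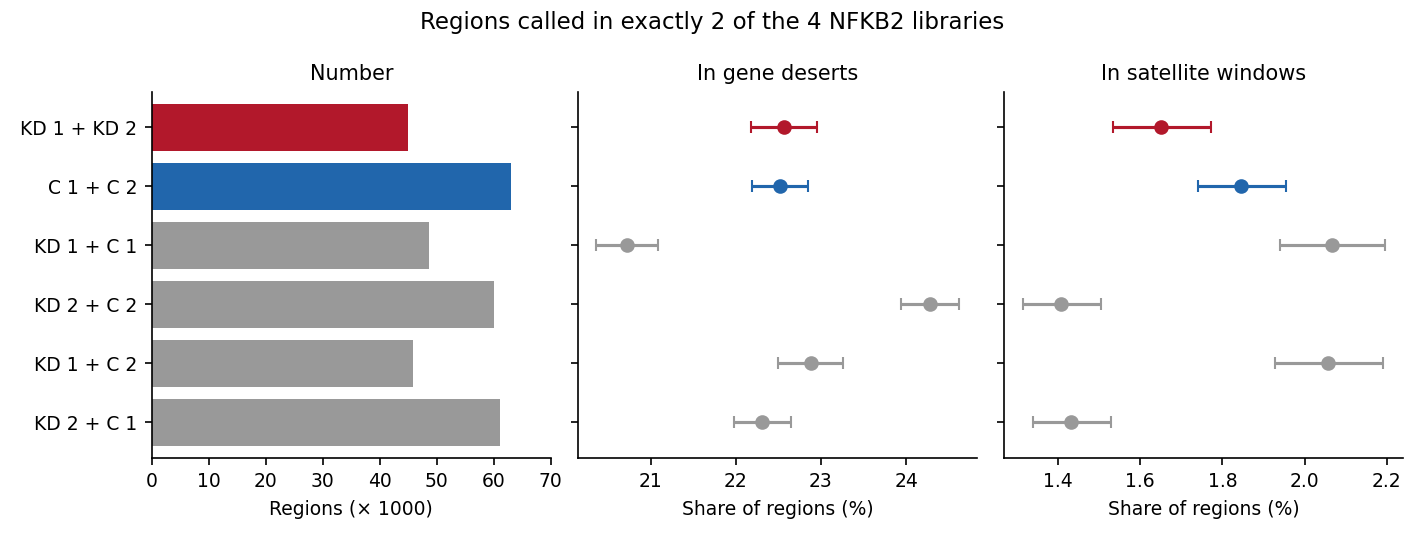
Regions called in exactly 2 of the 4 libraries. Left, their number in units of 1000 (bars from 0). Middle and right, the share of them in gene deserts and in satellite windows (percent, axes not from 0, with exact 95% intervals that cover counting error). Red is knockdown-only, blue control-only and gray the mixed pairings, and the red and blue shares lie within the range of the gray ones.

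Satellite windows held 742 knockdown-only regions (1.65%, 1.53% to 1.77%) and 1164 control-only regions (1.85%, 1.74% to 1.95%). The mixed pairings spread more widely, from 1.41% for knockdown 2 with control 2 to 2.07% for knockdown 1 with control 1. Both pairings with knockdown 2 were low (1.41% and 1.43%) and both with knockdown 1 high (2.06% and 2.07%). Knockdown 2 was also the library with intervals over 5000 bp, 1308 of them, of which 56.9% touched satellite windows. They were dropped here. With them kept, the shares were 1.79% for knockdown-only and 1.735% for control-only regions, which turned the order of the conditions. Regions in satellite windows were called in more than 1 library more often than elsewhere. In them 69.9% of regions had a single library, beside 82.1% of all regions, and 1.49% had all 4, beside 0.308%.

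Single satellite blocks gave both patterns. The centromere model of chromosome 11 held 71 knockdown-only and 106 control-only regions beside 82 to 115 in the mixed pairings, and that of chromosome 18 held 84 and 97 beside 80 to 113. Others lay outside their mixed pairings on both sides. Chromosome 3 held 29 and 57 beside 34 to 41, and chromosome 9 held 28 and 64 beside 33 to 49. Chromosome 21 held 44 and 83 beside 60 to 79, and chromosome 22 held 34 and 65 beside 37 to 43. In no window did knockdown-only regions outnumber control-only regions, which were also the larger set over the genome. The centromere of chromosome 19, with 186, 80, 225 and 234 peaks in knockdown 1, knockdown 2, control 1 and control 2, held 5 and 21. There knockdown 2 was the low library. Its mixed pairings held 16 regions with control 2 and 7 with control 1. Those of knockdown 1 held 19 with control 1 and 30 with control 2. The 5 knockdown-only regions lay below all of these, and the 21 control-only regions within their range.

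The 5 regions with the highest scores in each condition lay wholly or mostly in satellite windows. Ranked by the smaller −log10 p of their 2 libraries, the first 4 control-only regions and all of the first 5 knockdown-only regions were in satellite windows. The first knockdown-only region, chr17:24421367-24421525 in the centromere model, had −log10 p of 27.6 and 27.75 and fold enrichments of 3.404 and 3.634. The next was chr16:34573978-34574144, with −log10 p of 26.9 and 30.7. It lay within 50 kb of 1 control-only region and of 7 regions called in all 4 libraries. The third, chr1:143238018-143238188, at the edge of the heterochromatic block of that chromosome, had 3 control-only and 13 such shared regions within 50 kb. The last 2, on chromosomes 10 (chr10:41555875-41556047) and 11 (chr11:53951905-53952086), had −log10 p of 7.47 and 6.02, and of 5.99 and 7.02.

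The first control-only region was chr12:34952275-34952509, with −log10 p of 8.27 and 8.17 and fold enrichments of 4.13 and 4.36, 924 kb from ALG10, an enzyme of protein glycosylation. Another pair lay side by side on chromosome 1 (chr1:143261904-143262384 and chr1:143262562-143263045), in the block that held the knockdown-only region above. The fourth, chr3:92642177-92642796, had −log10 p of 13.1 and 5.49. The fifth, on chromosome 8, was the exception outside the windows and lay 81.3 kb from LOC101929601. Of the first 100 regions by this rank, 22 knockdown-only and 24 control-only regions were in satellite windows, beside 13 to 30 in the mixed pairings.

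Peaks with a q of at most 0.05 lay mostly in satellite windows, from 74.6% to 80.4% of them per library, and from 6.14% to 7.84% in gene spans. When these peaks alone were compared, 6 regions were called in both knockdown and neither control library and 7 the other way around, beside 1 to 5 in the mixed pairings and 27 in all 4. All of the 6 and 6 of the 7 were in satellite windows, and the other lay between genes on chromosome 7 (chr7:56370652-56370910). No such region overlapped a gene span outside the satellite windows, and spans inside the windows were not counted. Of the 6, 3 were also listed at a weaker p in at least 1 control library, and of the 7, 6 in at least 1 knockdown library.

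Along the chromosomes, peak density was highest on chromosome X in every library, at 346 and 418 peaks per Mb in knockdown 1 and 2 and 428 and 409 in control 1 and 2. Chromosomes 2, 4 and 18 followed in knockdown 2 and both control libraries, at 278 to 299 peaks per Mb. Knockdown 1 was flatter, with 197 to 207 on the same chromosomes. Against the geometric mean of the control libraries it stood lowest on chromosome 18 (log2 -0.57) and chromosome 2 (-0.54) and highest on chromosome 14 (0.11). Knockdown 2 stayed between -0.17 and 0.02 on all 23 chromosomes. The ratio of knockdown-only to control-only regions ran from 0.562 on chromosome 19 to 0.96 on chromosome 20.

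**Figure D3:**
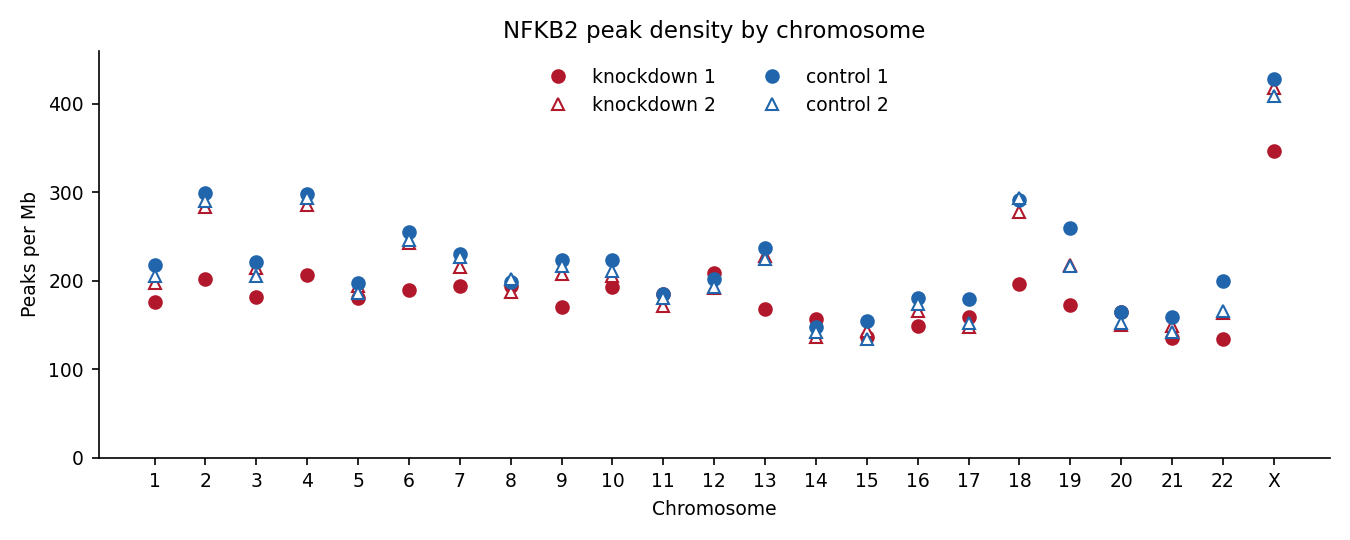
NFKB2 peaks per Mb (vertical axis from 0) on each chromosome, with 1 point per library: red knockdown, blue control, circles replicate 1, open triangles replicate 2. Knockdown 1 lies below the other 3 libraries on most chromosomes. On chromosomes 2, 4, 6, 13, 18 and X, among others, knockdown 2 lies closer to the control libraries than to knockdown 1.

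In windows of 1 Mb, each library was described by the share of its own peaks, which takes out its total. Of 2905 windows with a mean of at least 50 peaks, 340 (11.7%) had a higher share in both knockdown libraries than in both control libraries, and 360 (12.4%) the reverse. The split by replicate number separated more windows, 669 (23.03%) and 601 (20.7%), and the remaining split, knockdown 1 with control 2, separated 443 (15.25%) and 492 (16.9%).

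The window with the widest gap toward knockdown held 90 and 104 peaks in knockdown and 75 and 70 in control cells (chr16:17000001-18000000). Its single protein-coding gene is XYLT1, which starts the sugar chains of proteoglycans. The lowest knockdown share exceeded the highest control share by 0.56 on the log2 scale. In the window of SLC6A15, a neutral amino acid transporter (chr12:84000001-85000000), the numbers were 252 and 238 against 189 and 183, and the gap was 0.40. The window of chr5:81000001-82000000, with RASGRF2, a Ras activator, and SSBP2, held 175 and 228 against 167 and 144. The other 2 were chr5:117000001-118000000, with 202 and 262 against 175 and 164 peaks and no named gene beyond 2 LOC entries, and chr12:1000001-2000000, with WNT5B, ADIPOR2 and CACNA1C, at 94 and 104 against 84 and 82. In these 5 windows the peak numbers themselves were higher in both knockdown libraries, although their lists were shorter.

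Toward control, the widest gap was in a gene-rich window (chr19:4000001-5000000), with 30 protein-coding genes, among them the kinase MAP2K2, the deacylase SIRT6 and the SUMO ligase PIAS4. It held 158 and 187 peaks in knockdown and 251 and 245 in control cells, a gap of -0.33, with 6 knockdown-only and 32 control-only regions. The window of TAFA5, a secreted brain protein (chr22:48000001-49000000), held 166 and 208 against 274 and 255, and 16 and 18 such regions. The window of ANTXR1, AAK1 and ANXA4 (chr2:69000001-70000000) held 182 and 254 against 326 and 323. A window with no protein-coding gene that touched a satellite window (chr21:8000001-9000000) held 95 and 106 against 141 and 154. The window of JUN and DAB1 (chr1:58000001-59000000) held 199 and 250 against 345 and 305. JUN is a subunit of the AP-1 transcription factor.

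**Figure D4:**
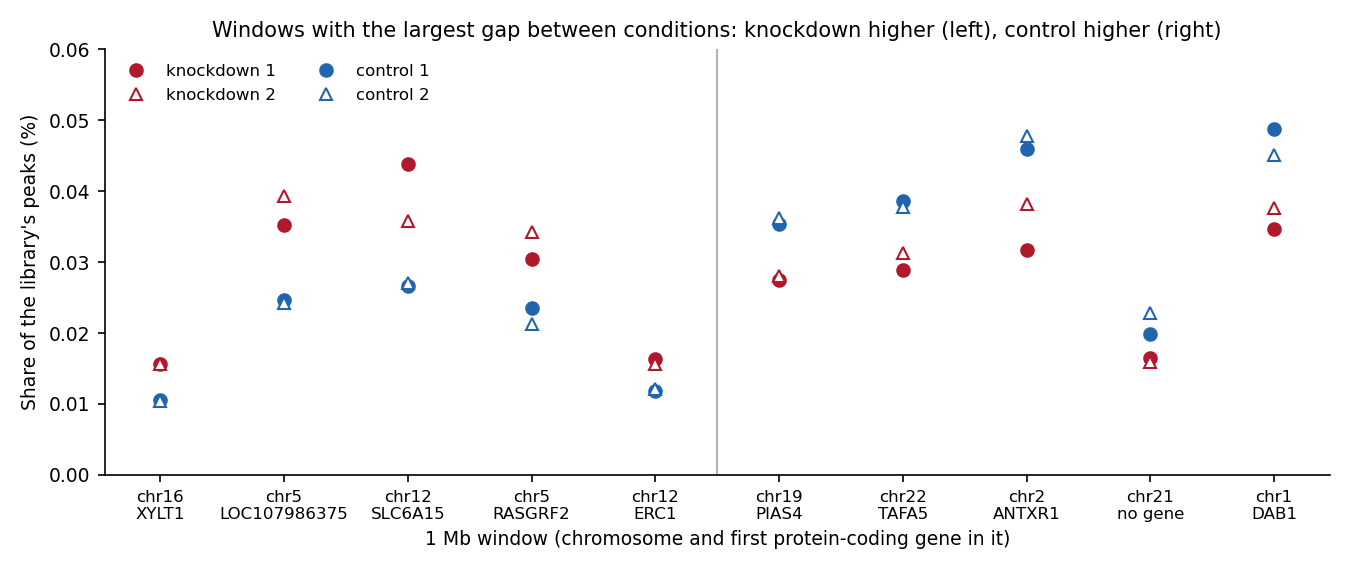
Share of each library's NFKB2 peaks (percent, vertical axis from 0) in the 5 windows of 1 Mb with the widest gap toward knockdown (left) and the 5 toward control (right), named by chromosome and first protein-coding gene. Red is knockdown, blue control, circles replicate 1 and open triangles replicate 2. The windows were chosen for this gap.

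The same 10 windows, chosen on the NFKB2 shares, were read in the RELA and RELB lists. These lists come from the same conditions and replicate numbers, so agreement between antibodies is no independent check. RELA separated the conditions in the same direction in 4 of them and RELB in 5, and neither did so in the opposite direction. Over all 2905 windows, RELA was higher in both knockdown libraries in 13.1% and in both control libraries in 21%, and RELB in 15.4% and 17.3%. The window of ANTXR1, AAK1 and ANXA4 was the one in which both did, with RELA shares of 0.0313% and 0.0307% in knockdown and 0.0362% and 0.033% in control cells, and RELB shares of 0.0267% and 0.0333% against 0.0379% and 0.0339%. In the SLC6A15 window the RELA shares were 0.0644% and 0.055% in knockdown and 0.0461% and 0.0273% in control cells, while the RELB shares overlapped (0.0413% and 0.0569% against 0.0377% and 0.0421%). In the XYLT1 window RELB separated the conditions (0.0173% and 0.019% against 0.0162% and 0.0154%) and RELA did not (0.0209% and 0.021% against 0.0161% and 0.0232%). Whether NFKB2 binding or anything else differs between the conditions in these windows was not tested.

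Deserts held many regions of both patterns. The longest, 4.86 Mb between PCDH7 and ARAP2 on chromosome 4, had 204 and 290 peaks per Mb in knockdown and 286 and 287 in control cells, with 91 knockdown-only and 146 control-only regions beside 82 to 151 in the mixed pairings. Knockdown 1 was the low library there and in each of the 8 longest deserts. The desert between NUDT12 and EFNA5 on chromosome 5 was the one of the 8 with more knockdown-only (93) than control-only regions (89), beside 57 to 113 in the mixed pairings. There the peaks per Mb were 208 and 317.5 in knockdown and 255 and 244 in control cells.

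Over genes, 6792 of 19970 protein-coding genes (34.0%) held a knockdown-only region and 7456 (37.3%) a control-only region, beside 33.6% to 37.9% in the mixed pairings. Both kinds were found in 4657 genes (23.3%). Genes with a knockdown-only region had a median length of 81.1 kb, and those with a control-only region 75.1 kb, beside 24.2 kb over all genes. Knockdown-only without control-only regions were found in 2135 genes, and the reverse in 2799, beside 1999 to 2866 in the mixed pairings.

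The genes with the most regions of either kind were very long, and 4 of the first 5 were the same. IL1RAPL2, a synaptic receptor gene of 1202 kb on chromosome X, held the most knockdown-only regions, 83, and 76 control-only, beside 54 to 92 in the mixed pairings. It was followed by PCDH11X (57), PTPRD (56), DMD (49) and DACH2 (47). DMD, the dystrophin gene of 2220 kb, held the most control-only regions, 87, beside 42 to 90 in the mixed pairings, and was followed by IL1RAPL2 (76), PCDH11X (75), PTPRD (74) and CSMD1 (68). DACH2 had more knockdown-only (47) than control-only regions (34), beside 32 to 53. PCDH11X has a near-identical copy elsewhere in the genome, so its peaks are uncertain. Of the 6 genes named, 2 had a count outside the range of their mixed pairings, PCDH11X with its 75 control-only regions (37 to 65) and CSMD1 with its 39 knockdown-only regions (46 to 69).

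Of 15 genes of the noncanonical pathway, 3 held a knockdown-only and 7 a control-only region, beside 3 or 4 in the mixed pairings. As background for this and the next lists, over all protein-coding genes the shares were 34.0% and 37.3%, and the median gene length was 31.5 kb in this list and 24.2 kb over all genes. Their peaks per Mb of gene span were 153 and 178 in knockdown and 215 and 169 in control cells, and those of all protein-coding genes were 194, 220.5, 239 and 221. The list lay below all genes in each of the 4 libraries. For this and the next lists, how many of all protein-coding genes separate the conditions without overlap was not counted. Genes that do so are named as description only.

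Among the transcription factors, NFKB2 itself held 1 and 0 peaks in knockdown and 1 and 2 in control cells. RELB held 5 and 14 in knockdown and 11 and 14 in control cells, with 0 knockdown-only and 2 control-only regions, and the groups overlapped. Among the receptors and ligands, TNFRSF11A (RANK) held 15 and 19 in knockdown and 26 and 16 in control cells, with 2 knockdown-only and 3 control-only regions. LTBR, the lymphotoxin β receptor, held 0 and 3 peaks in knockdown and 11 and 4 in control cells. Its groups did not overlap, but this was not set against all genes, and both control lists were longer. The ligand TNFSF13B (BAFF) held 9 and 7 against 15 and 8, and LTB none. CD40 held 2 and 3 against 0 and 3, TNFRSF13C 1 and 2 against 1 and 0, and TNFRSF12A 1 and 0 against none.

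Among the kinases and their brakes, MAP3K14 (NIK) held 4 and 6 peaks in knockdown and 4 and 4 in control cells, and CHUK (IKKα) 5 and 6 against 7 and 5. TRAF3 held 22 and 21 against 20 and 20, the one brake with both knockdown libraries above both control libraries, with 2 knockdown-only regions and 1 control-only region over 134 kb. TRAF2 held 3 and 1 against 7 and 3, BIRC2 6 and 4 against 4 and 3, and BIRC3 5 and 6 against 4 and 5. Single genes were not tested, since 2 libraries against 2 allow no smaller exact p than 0.33.

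**Figure D5:**
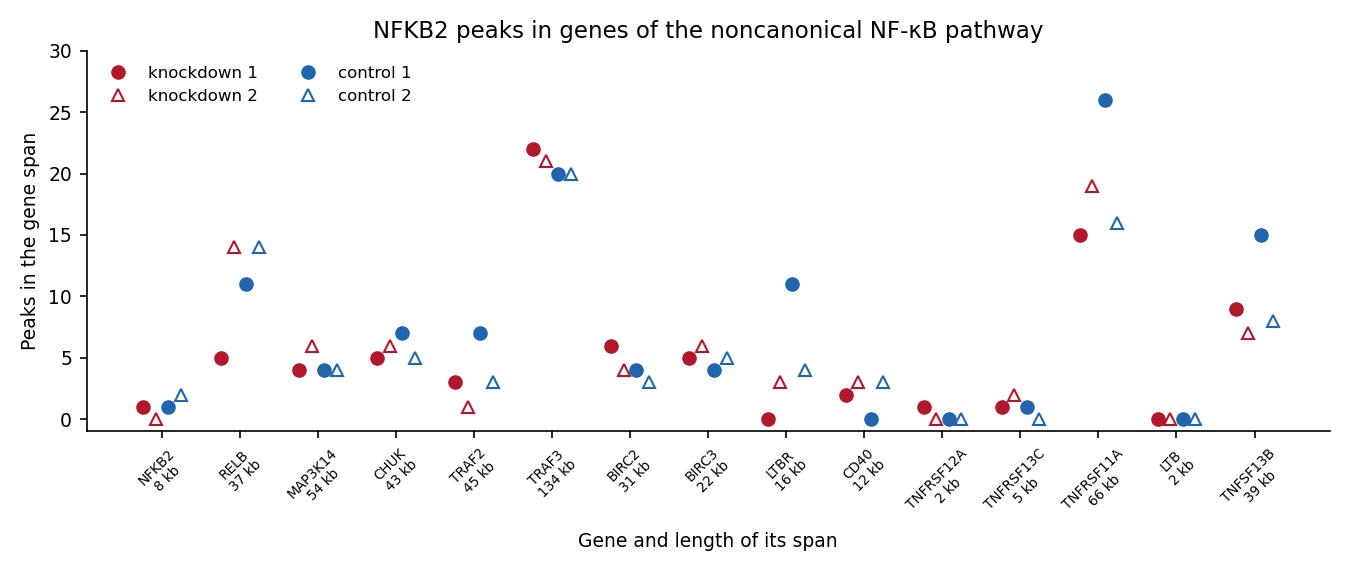
NFKB2 peaks inside the span of each gene of the noncanonical NF-κB pathway (vertical axis), with 1 point per library: red knockdown, blue control, circles replicate 1, open triangles replicate 2. The length of the span stands under each name. The highest counts are in TRAF3 and TNFRSF11A, the longest genes of the list, and most genes show overlapping conditions.

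Of 12 NF-κB subunits and inhibitors, 1 held a knockdown-only and 6 a control-only region, beside 2 to 5 in the mixed pairings, and over all protein-coding genes the shares were 34.0% and 37.3%. NFKB1, which encodes p105/p50, had the most peaks, 24 and 34 in knockdown and 38 and 31 in control cells, and was the one gene with knockdown-only regions (5, beside 2 control-only and 2 to 6 in the mixed pairings). REL held 12 and 14 against 20 and 17, and the deubiquitinase CYLD 12 and 14 against 17 and 21. In both, the control libraries lay above the knockdown libraries without overlap. Both control lists were also longer than both knockdown lists over all peaks, and these genes were not set against all genes. IKBKB, the canonical kinase, held 7 and 5 against 4 and 6.

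Of 16 target chemokines and adhesion molecules, 1 held a knockdown-only and 3 a control-only region, beside 2 to 4 in the mixed pairings. These genes were short, with a median length of 5.998 kb, and over all protein-coding genes the shares were 34.0% and 37.3%. CXCL13, the B cell chemokine and a known noncanonical target, held 15 and 33 peaks in knockdown and 34 and 23 in control cells over a span of 100.1 kb, with 0 knockdown-only and 3 control-only regions. The adhesion molecules ICAM1 (5 and 8 against 4 and 6) and VCAM1 (5 and 6 against 4 and 7) had overlapping conditions, and so did SELE (1 and 4 against 4 and 0).

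Of 12 luminal breast genes, 5 held a knockdown-only and 4 a control-only region, beside 3 to 5 in the mixed pairings, where over all protein-coding genes the shares were 34.0% and 37.3%. ESR1, the estrogen receptor gene of 472.9 kb, had the most peaks, 101 and 150 in knockdown and 119 and 120 in control cells, with 13 knockdown-only and 11 control-only regions beside 8 to 15 in the mixed pairings. PGR, the progesterone receptor gene, held 19 and 15 against 13 and 13 peaks, higher in both knockdown libraries, with 2 regions of each kind. GREB1 held 31 and 34 against 38 and 29, and KRT8 7 and 4 against 10 and 5.

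A last list of 9 genes held DAB2IP, the knockdown target, and 8 genes that the study discusses as NF-κB targets. A knockdown-only region was found in 2 and a control-only region in 1, beside 1 or 2 in the mixed pairings, with shares of 34.0% and 37.3% over all protein-coding genes. TPI1, a glycolytic enzyme, held 2 and 2 peaks in knockdown and 1 and 0 in control cells, with 1 knockdown-only region. The splicing factor SRSF1 held 5 and 3 against 1 and 2, also higher in both knockdown libraries, but none of its peaks formed a knockdown-only region. The tubulin cofactor TBCA held 10 and 19 against 23 and 13, with 1 knockdown-only and 2 control-only regions. The survival factor BIRC5 held 4 and 1 against 4 and 3, NOP10 2 and 0 against none, PSENEN 0 and 3 against none, CDK5 1 and 0 against 1 and 0, and TMEM147 none. The targeted gene DAB2IP, over 218.5 kb, held 22 and 10 peaks in knockdown and 25 and 11 in control cells, and no region of 1 condition. Its counts followed the replicate number, not the knockdown. The study picked NOP10, TPI1, TMEM147 and PSENEN on RELA or RELB libraries of the same cells together with tumor expression. It picked BIRC5, SRSF1, TBCA and CDK5 on public RELA ChIP-seq of breast cells together with tumor expression. It also reports RELA bound at BIRC5 in control T47D cells. None of these genes was picked on NFKB2 binding.

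At promoters, 147 of 22131 (0.664%) held a knockdown-only and 220 (0.994%) a control-only region, beside 133 to 239 in the mixed pairings and 1726 to 2608 with a peak in a given library. Their median GC content was 56.7% and 61.0%, beside 54.3% to 64.7% in the mixed pairings and 62.3% over all promoters. The knockdown-only regions closest to a start were those of STEAP2, whose summits lay at -18 and 23 bases, SUMO4, a ubiquitin-like modifier (-36 and 16), and PLK1, a mitotic kinase (-35 and 39). They were followed by PCYOX1, ETV1, PPP1R12C, CAMP and SH3BGRL. The PLK1 region had −log10 p of 3.30 and 3.25 and fold enrichments of 3.05 and 2.95, the STEAP2 region 2.34 and 1.79, and the SUMO4 region 1.45 and 1.41, close to the limit of the lists at 1.301.

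The control-only regions closest to a start were those of ACSL6, in 2 overlapping promoter entries (summits at 9 and 6 bases in the one shown above), CGB7, a subunit of chorionic gonadotropin (5 and 9), SEPTIN11 (-33 and 18) and DPH5 (-39 and 26). ACSL5, CFAP263 and NPC2, a cholesterol transporter, completed the list. CGB7 belongs to a cluster of near-identical copies, so its peaks are uncertain. Its −log10 p of 2.101 and 4.007 and those of ACSL6, 3.29 and 1.42, were as modest as those of the knockdown-only promoters. None of the 16 promoter entries named for either condition held a κB motif.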

How the data were processed

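ChIP-seq with an NFKB2 antibody was carried out in T47D cells with DAB2IP knockdown or a control vector, in 2 libraries each. The authors had reads mapped with BWA 0.7.12 to hg38 and each library's peaks called by MACS2 2.1.0 (the submitters' notes also name CASAVA 1.8 and DiffBind). The deposited lists give each peak's interval and summit in base pairs from 0, its fold enrichment (a ratio over the local background), and the −log10 p-value of the authors' peak caller, with the −log10 q-value beside it. Of repeated intervals, the summit with the largest −log10 p was kept. Genes, their names and promoters came from RefSeq tables of GRCh38.p14, the same major build. Satellite windows were approximate positions entered by hand from general knowledge of the assembly and narrowed after the lists had been received.

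Libraries were compared by overlap of at least 1 bp, with the class of a region taken from any overlap. Peak numbers, covered bases and class shares were compared with exact two-sided permutation tests, and 95% intervals are exact (Clopper-Pearson). Alternatives were another overlap rule, stricter lists, long intervals kept, other classes, each library left out and a replicate block. Region patterns were tested on simulated data, where 600 of 600 planted regions were recovered. The planted regions stood far apart, unlike the peaks of these dense lists, so this checks the code alone. Tables were handled in pandas 2.3.3 and numpy 2.4.6 under Python 3.11.15, tests came from scipy 1.17.1, and figures were drawn with matplotlib 3.10.9.

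Named were all genes of the noncanonical list and of the study's genes, up to 4 genes with the most peaks in the other lists, 5 genes with the most regions, up to 8 promoters with the nearest summits, 5 regions with the largest smaller −log10 p and 5 windows with the largest gap, in each direction. The members and lists were chosen with earlier results of these data known. Input libraries were not used here.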

Additional observations from a re-analysis of the deposited data

Results flagged for a closer look

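Knockdown 2 listed 1308 intervals over 5000 bp on the chromosomes, and neither control library nor knockdown 1 listed any. They were outside the main comparison and stood above the level of the controls. Their median length was 13227 bp, the longest spanned 1185699 bp, and together they covered 34.45 Mb. Of them, 56.9% touched satellite windows, 20.9% gene spans, 7.26% promoter windows and 6.58% gene deserts.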

How the results depend on the processing

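With 2 libraries against 2 no exact test can pass 0.05, so the alternatives bear on directions and sizes alone. The log2 ratio of peak number stayed below 0 throughout, from -0.27 to -0.06 when single libraries were left out, and that of covered bases from -0.31 to -0.05. Covered bases came to -0.035 (exact permutation p = 1) with intervals over 5000 bp kept and turned to 0.099 with q of at most 0.05 alone. With the 100000 smallest p-values of each library, the difference in promoter windows turned to -0.0005 and in deserts to 0.1325 points, and it was -0.566 in satellite windows and 0.37 in gene spans. Deserts of at least 500 kb gave -0.3405. Leaving out single libraries turned the class differences: -0.384 to 0.884 points in gene spans, -0.0973 to 0.131 in promoter windows and -1.10 to 0.716 in deserts, each turning without knockdown 1 or control 2, and -0.2775 to 0.110 in satellite windows, turning without knockdown 2. Knockdown-only and control-only regions fell to 26760 and 35929 for summits within 100 bp, 2327 and 2531 for the 100000 smallest p-values (mixed pairings 2334 to 2433), and 6 and 7 for q of at most 0.05. They numbered 55798 to 496466 and 74742 to 551834 when a library was left out, since a condition with 1 library needs a single call. Likewise, genes numbered 7300 to 15653 and 7913 to 15873, and windows 654 to 1295 and 753 to 1298. Genes fell to 725 and 733 with the 100000 smallest p-values. The alternatives for genes and windows were chosen after seeing the data. In all, 47 alternative values kept their direction or lay within 1.5 times the count, 24 counts moved further and 10 values changed sign. With the replicate block, differences were identical (-0.16 for peak number, exact permutation p = 0.5, the smallest that 2 pairs allow) and no call changed. The deviations of same-numbered libraries correlated at 0.30 over 2905 windows, but 2 pairs without a meaning in the labels share only a number. The lists give no read depth, which limits any statement on a missing peak.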
